A study of Mus musculus with 4 samples.

Results

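The Hedgehog pathway was followed through 9 of its genes in differentiating mouse embryonic stem cells (mESCs). The 9 genes code for 2 ligands (Shh, Ihh), a ligand receptor (Ptch1), the membrane protein that passes the signal on (Smo), the 3 GLI transcription factors (Gli1, Gli2, Gli3), a ligand-binding membrane inhibitor (Hhip) and an inhibitor that holds GLI proteins (Sufu). They were chosen by name, with earlier results of these data known, and all 9 were found among the 55487 gene IDs of the count table. Of the 9 genes, 7 passed the filter on low counts that kept 14932 gene IDs for the test, and Shh and Ihh did not.

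The cells were wild-type E14-Tg2a mESCs, an established mouse line, put through cardiogenic differentiation, with 2 libraries at d4 and 2 libraries at d2, from independent differentiation experiments by the study's account. The d4 cells had spent 48 h as aggregates in serum-free medium, were then taken apart, and formed aggregates again for 40 h in medium to which VEGF (5 ng/ml), BMP4 (0.5 ng/ml) and Activin A (8 ng/ml) had been added. The d2 cells had spent 48 h in the same serum-free medium without these factors. Day, added factors and reaggregation changed together between the groups and cannot be told apart, no Hedgehog ligand, agonist or inhibitor is named among the additions, and both groups come from 1 cell line.

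In the Hedgehog pathway, a secreted ligand binds PTCH1 and so lifts its block on SMO, a membrane protein that then acts at the primary cilium. Without ligand, SUFU holds the GLI proteins and GLI3 in particular is processed into a repressor, while with ligand GLI2 and GLI3 are turned into activators. Gli1 and Ptch1 are themselves targets of the pathway in many mouse tissues, and RNA of either is widely read as a measure of the response. In the mouse embryo, Ihh from visceral endoderm and Shh from the node signal to mesoderm, and loss of the pathway disturbs the early yolk sac vasculature.

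Of the 9 genes, Gli1 was the one past the test. It fell 4.37-fold at d4, while Gli2 and Gli3, which code for the other GLI factors, did not pass, with log2 fold changes of -0.15 and 0.49. The ligands were at or near the limit of detection in all 4 libraries, and Smo, Ptch1 and Sufu were expressed on both days without passing the test. By direction, 0 of the 7 tested genes were called higher and 1 lower, against 12.9% of all tested genes called higher at d4, 11.3% called lower and 24.3% called in either direction. Counts were scaled to library size as CPM, with TMM factors, and the test was edgeR's quasi-likelihood test with a Benjamini-Hochberg adjusted p under 0.01 over all tested genes.

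Total counts were 11397439 and 16851485 in d4 replicates 1 and 2, and 12068584 and 14038796 in d2 replicates 1 and 2. At these depths 3 counts in a library, used as the floor for a gene with none, stood for 0.177 to 0.254 CPM. The leading principal component separated the days and held 90.9% of the variance. Mitochondrial genes took 1.44 and 2.36% of counts at d4 and 1.33 and 3.07% at d2. Endothelial markers were called higher at d4 for 9 of 9 tested genes of 10 listed, as were 12 of 13 lateral and extraembryonic mesoderm markers, while 8 of 10 epiblast and pluripotency markers were called lower. The cultures were sequenced in bulk, so fewer cells of a type and less RNA per cell cannot be told apart in any value below.

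Shh codes for Sonic hedgehog, the ligand of node, notochord and floor plate, and lies on the minus strand at chr5:28456815-28467256 (GRCm38). It had 5 and 8 counts at d4, or 0.423 and 0.471 CPM, and 0 counts in both d2 libraries. Both d4 libraries were therefore above both d2 libraries, but at a level close to the floor. Against a floor of 3 counts per library at d2, Shh was at least 1.89-fold higher at d4, and it was not tested because it did not pass the filter. Of 2773 windows of read length along Shh, 585 are also found on the opposite strand, in Gm26894 and 9530036O11Rik. The reads were counted by strand, and whether any of the few Shh counts came from the opposite strand was not tested.

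Ihh codes for Indian hedgehog, the ligand of visceral endoderm and later of cartilage and gut. It had 2 and 1 counts at d4 and 1 and 0 counts at d2, which is within the floor in each of the 4 libraries. The ratio of its summed normalized counts, d4 over d2, was 2.64 with an exact 95% counting interval of 0.212 to 139, so no difference was detectable at this depth. Dhh, for Desert hedgehog, had 1 and 1 counts at d4 and 1 and 5 counts at d2. On the same strand 9.2% of its windows of read length are shared with Rhebl1, and 890 of 4325 are found on the opposite strand in Gm49442. Over the 3 ligand genes together, the libraries held 8 and 10 counts at d4 (0.677 and 0.588 CPM) and 2 and 5 counts at d2 (0.164 and 0.38 CPM). Hedgehog ligand RNA was thus under 1 CPM in each library, and intervals and floors cover counting error only.

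Genes listed as markers of cell types that make these ligands were present at different levels. Some, such as Cyp26a1 and Foxa2, are shared between tissues, and whether such cells were present in the cultures was not tested. Of 14 visceral endoderm markers, 6 were tested, 2 of them called higher at d4 (Cyp26a1 and Soat2) and 0 lower, and Apoc2 had no count in any library. Their summed level was 167 and 126 CPM at d4 and 6.54 and 5.47 CPM at d2. Cyp26a1, a retinoic acid hydroxylase that other tissues also use, held 1814 and 1965 counts at d4 and 2 and 2 counts at d2. That was 154 and 116 CPM of the sum at d4 and 0.164 and 0.152 CPM at d2, so the higher d4 sum rested mostly on Cyp26a1. Afp, which codes for a serum protein of the visceral endoderm, had 2 and 0 counts at d4 and 0 in both d2 libraries, and Ttr, for a thyroid hormone carrier, had 10 and 7 counts at d4 and 0 in both d2 libraries. Hnf4a, for a transcription factor of visceral endoderm and liver, had 18 and 13 counts at d4 and 2 and 0 counts at d2, a log2 fold change of 3.66 that did not pass (edgeR adjusted p = 0.0202). Of 10 node and notochord markers, 7 were tested, with 2 called higher and 4 lower, at a median log2 fold change of -2.77. Their summed level was 26.2 and 20.3 CPM at d4 and 16.4 and 13.1 CPM at d2. T, called higher, held 21.5 and 17.0 CPM of that sum at d4 and 0.409 and 0.607 CPM at d2, so the higher d4 sum rested on T. Ccno and Foxj1 were among the 4 called lower. Noto, a notochord transcription factor, was at 0 in all 4 libraries, and Foxa2, shared by node, floor plate and endoderm, had 9 and 12 counts at d4 and 5 and 7 counts at d2. Definitive endoderm markers were called higher for 5 and lower for 1 of 7 tested genes of 10 listed. Their summed level was 252 and 199 CPM at d4 and 364 and 296 CPM at d2, against the direction of most calls. Trh, the gene called lower, held 359 and 292 CPM of that sum at d2 and 12.2 and 9.71 CPM at d4. Cxcr4 and Hhex were among those called higher, with Cxcr4 at 103 and 104 CPM at d4 and 0.736 and 0.835 CPM at d2. The part of any of these cells in the ligand counts was not tested.

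Ptch1 codes for the main Hedgehog receptor, a membrane protein that keeps SMO inactive until a ligand binds. It lies on the minus strand at chr13:63508328-63573598. Ptch1 was at 125 and 124 CPM at d4 and at 108 and 94.5 CPM at d2. The d4 libraries were both above the d2 libraries, by a margin of the same order as the gap between the d2 replicates. The log2 fold change was 0.29 with a standard error (SE) of 0.19 and a 95% interval of -0.16 to 0.75 (edgeR adjusted p = 0.269), so a rise of up to 0.75 on the log2 scale was not separated from no change.

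Smo, on the plus strand at chr6:29735503-29761365, codes for the protein that PTCH1 holds in check. It was at 147 and 152 CPM at d4 and at 118 and 101 CPM at d2. Its d4 libraries too were both above its d2 libraries, and the d4 replicates were closer to each other than the d2 replicates were. Its log2 fold change was 0.45 (SE 0.19, 95% interval -0.01 to 0.91) and did not pass (edgeR adjusted p = 0.115). Of 5546 windows of 75 bases, the read length, along the Smo exons, 0.757% were also found on the same strand of another gene, Gm4066, and for the other 8 genes none were.

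Levels per length were set side by side as CPM divided by the exon length in kilobases (RPKM). On that scale Smo was at 26.2 and 27.1 RPKM at d4 and at 21.1 and 18.0 RPKM at d2, the highest of the 9 genes in every library. Ptch1 was at 8.78 and 8.74 RPKM at d4 and at 7.63 and 6.66 RPKM at d2. The ratio of Ptch1 to Smo on the RPKM scale was 0.335 and 0.323 at d4 and 0.362 and 0.369 at d2. Both d4 ratios were below both d2 ratios, by a difference of 0.0369 between the day means (exact permutation test, two-sided, p = 0.33, the smallest p that 2 libraries against 2 allow).

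Hhip codes for Hedgehog-interacting protein, a membrane protein that binds ligand and so limits signalling, and it is itself a Hedgehog target. It lies on the minus strand at chr8:79965851-80058006. Hhip had 3 and 33 counts at d4 and 2 and 4 counts at d2, or 0.254 and 1.94 CPM at d4 and 0.164 and 0.304 CPM at d2. The high value was that of d4 replicate 2, whereas d4 replicate 1 lay between the d2 libraries, so the groups overlapped. The fitted log2 fold change was 2.27 (SE 0.99, 95% interval -0.08 to 4.63) and did not pass (edgeR adjusted p = 0.116). Without d4 replicate 1 it was 3.00 (edgeR adjusted p = 0.000146) and without d4 replicate 2 the gene did not pass the filter, so the value rests on 1 library.

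Sufu codes for a cytoplasmic protein that binds GLI factors and promotes the repressor form. It lies on the plus strand at chr19:46396896-46488804. Sufu was at 75.9 and 57.7 CPM at d4 and at 82.4 and 64.8 CPM at d2. In both groups replicate 1 was above replicate 2, and the groups overlapped. A log2 fold change of -0.14 (SE 0.23, 95% interval -0.70 to 0.42) did not pass (edgeR adjusted p = 0.668).

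The 3 GLI factors share a run of zinc fingers and bind the same DNA motif, so their reads were checked for mix-ups before the genes were compared. The stretch of 75 coding bases in which the 3 genes are jointly closest is printed here because it shows how far a read of that length can tell the members apart. Capitals mark the 15 positions that are not the same in all 3 genes (GENCODE M21 transcripts on GRCm38, 5′ to 3′ along the coding strand).
Gli1: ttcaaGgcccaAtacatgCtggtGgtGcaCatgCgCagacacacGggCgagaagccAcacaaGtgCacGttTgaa
Gli2: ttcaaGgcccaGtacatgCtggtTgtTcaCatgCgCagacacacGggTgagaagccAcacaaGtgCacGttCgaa
Gli3: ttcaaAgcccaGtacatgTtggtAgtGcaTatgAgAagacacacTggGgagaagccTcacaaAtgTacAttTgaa
The Gli1 stretch runs over exons 9 and 10 of 13 on the minus strand of chr10:127334358-127336031, the Gli2 stretch over exons 10 and 11 of 14 on the minus strand of chr1:118844510-118845985, and the Gli3 stretch over exons 11 and 12 of 15 on the plus strand of chr13:15713580-15714955. In this stretch Gli1 and Gli2 differed at 5 positions, Gli1 and Gli3 at 13, and Gli2 and Gli3 at 14. Single pairs came closer elsewhere, with at least 4 differences between any coding windows of 75 bases for Gli1 and Gli2, 9 for Gli1 and Gli3 and 10 for Gli2 and Gli3, so no window of that length was shared between GLI genes.

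Gli1 codes for the GLI factor that acts as an activator and that Hedgehog signalling itself turns on. It lies on the minus strand at chr10:127329882-127341974. Gli1 had 31 and 31 counts at d4 and 134 and 110 counts at d2, which is 2.62 and 1.82 CPM at d4 and 11.0 and 8.35 CPM at d2. Both d4 libraries were far below both d2 libraries.
The means were 2.22 ± 0.566 CPM at d4 and 9.66 ± 1.84 CPM at d2 (SD, n = 2 each). The log2 fold change was -2.13 (SE 0.33, 95% interval -2.91 to -1.35), a 4.37-fold lower level at d4 (edgeR adjusted p = 0.0025). With 1 d2 library left out the direction held and the call did not: the log2 fold change was -1.93 without d2 replicate 1 (edgeR adjusted p = 0.0428) and -2.37 without d2 replicate 2 (edgeR adjusted p = 0.0326). In those fits edgeR called 0 of all tested genes, while 6257 and 5973 genes had an unadjusted p under 0.05, and DESeq2 gave Gli1 adjusted p-values of 0.101 and 0.0272. Without d4 replicate 2, edgeR still called Gli1 (adjusted p = 0.000889) and DESeq2 did not (-1.89, adjusted p = 0.0203). Gli1 overlaps exons of Arhgap9 and Gm47200 on the opposite strand, and the reads were counted by strand.

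Gli2 codes for the main activator of the ligand-driven response in the mouse. It lies on the minus strand at chr1:118834132-119053619. Gli2 was at 24.5 and 17.8 CPM at d4 and at 27.8 and 19.1 CPM at d2. Replicate 1 was above replicate 2 in both groups, and the groups overlapped. Its log2 fold change of -0.15 (SE 0.28, 95% interval -0.82 to 0.52) did not pass (edgeR adjusted p = 0.709).

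Gli3 codes for the GLI factor best known as a repressor, which limits Hedgehog targets where ligand is absent. It lies on the plus strand at chr13:15463235-15730026. Gli3 was at 71.3 and 74.4 CPM at d4 and at 52.9 and 51.1 CPM at d2. Both d4 libraries were above both d2 libraries with replicates close to each other. The log2 fold change was 0.49 (SE 0.19, 95% interval 0.04 to 0.94), which did not pass over all genes (edgeR adjusted p = 0.085). Of the 7 tested genes, Ptch1, Smo and Gli3 had both d4 libraries above both d2 libraries and Gli1 had both below, against 35.8 and 35.2% of all tested genes in these directions.

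**Figure D1:**
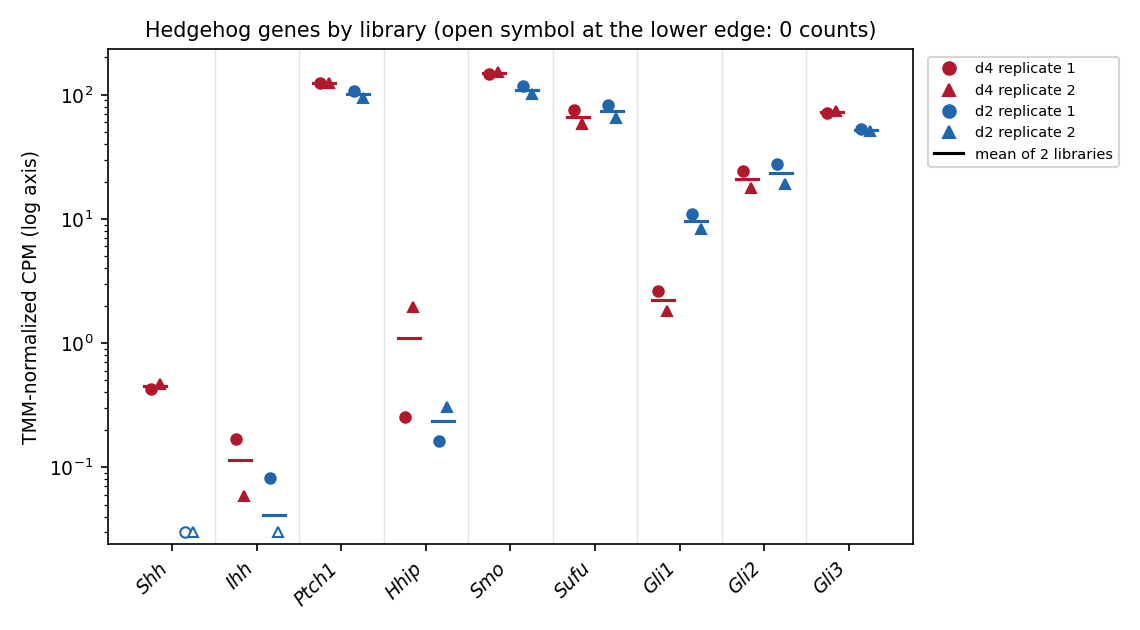
TMM-normalized CPM of the 9 genes in each library on a log axis, red for d4 and, to its right, blue for d2, with circles for replicate 1, triangles for replicate 2, a line at each day's mean and an unfilled mark where a library had 0 counts. Gli1 is the gene whose d4 points are called below its d2 points, Ptch1, Smo, Gli2, Gli3 and Sufu lie between 17.8 and 152 CPM on both days, and Shh, Ihh and Hhip lie under 2 CPM.

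The make-up of the GLI family differed in the same direction in both d4 libraries. On the RPKM scale, Gli1 made up 4.55 and 3.41% of the summed GLI level at d4 and 18.7 and 17.1% at d2. Gli3 made up 64.5 and 72.4% at d4 and 46.9 and 54.5% at d2, and Gli2 made up 31.0 and 24.2% at d4 and 34.4 and 28.4% at d2. The groups did not overlap for Gli1 and Gli3 and overlapped for Gli2. The mean Gli1 share was 3.98 ± 0.807% at d4 and 17.9 ± 1.1% at d2 (SD, n = 2 each), a difference of -13.9 percentage points, and the mean Gli3 share was 68.5% at d4 and 50.7% at d2. The exact permutation test, two-sided, gave p = 0.33 for Gli1 and for Gli3, the smallest it can give here, and 0.667 for Gli2. The 3 shares add up to the whole and are not independent of one another.

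The summed GLI level itself was 11.5 and 10.7 RPKM at d4 and 11.8 and 9.78 RPKM at d2, with overlapping groups (exact permutation p = 1.0). Gli3 was the most abundant GLI gene per length in all 4 libraries and Gli1 the least. Gli1 was at 0.525 and 0.365 RPKM at d4 and at 2.19 and 1.67 RPKM at d2. The ratio of Gli1 to Gli2 on the RPKM scale was 0.147 and 0.141 at d4 and 0.542 and 0.603 at d2, so the fall of Gli1 stood against a near relative whose level did not pass the test. The ratio of Gli1 to Ptch1, the other gene that is commonly read as a response, was 0.0598 and 0.0418 at d4 and 0.287 and 0.251 at d2 (exact permutation p = 0.33 for each ratio).

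**Figure D2:**
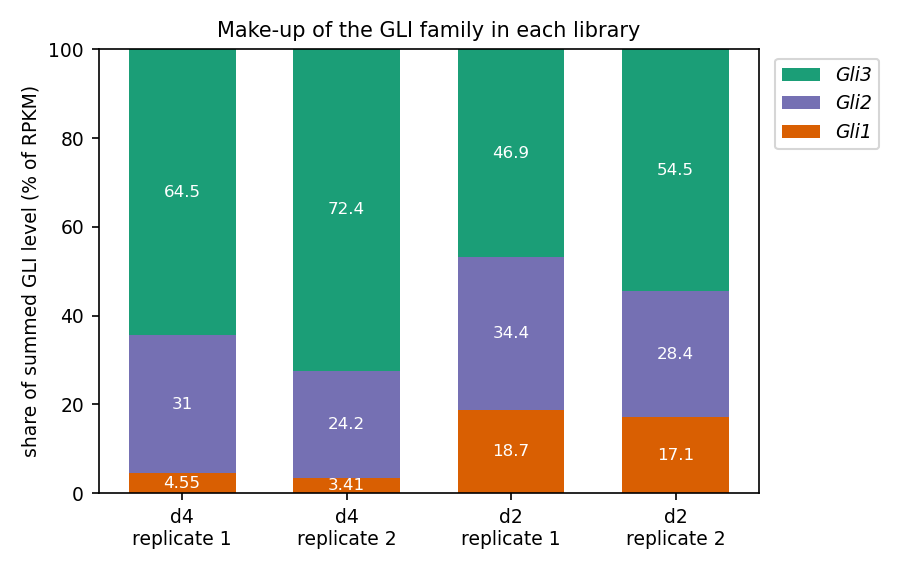
Share of Gli1, Gli2 and Gli3 in their summed RPKM, in percent, for each library, with d4 replicates left of d2 replicates. The Gli1 part is 4.55 and 3.41% at d4 and 18.7 and 17.1% at d2, and the Gli3 part is the largest in each of the 4 libraries.

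Over the 9 genes, the order of mean level per length at d4 was Smo (26.6 RPKM), Ptch1 (8.76), Sufu (8.69), Gli3 (7.6), Gli2 (3.08), Gli1 (0.445), Shh (0.157), Hhip (0.121) and Ihh (0.0374 RPKM). At d2 the order of mean RPKM was Smo (19.6), Sufu (9.57), Ptch1 (7.15), Gli3 (5.42), Gli2 (3.41), Gli1 (1.93), Hhip (0.0257), Ihh (0.0134) and Shh (0.0 RPKM). At d4 the RPKM values of Sufu overlapped with those of its neighbours Ptch1 and Gli3, while at d2 no neighbours from Smo to Gli1 overlapped. Shh, Hhip and Ihh rested on too few counts to be ordered. The order depends on the length used, here the union of annotated exons. For Sufu that is 7691 bases against 4522 in its longest transcript, and for Ptch1 14185 against 10383. The order per longest transcript was not tested, so the places of Ptch1 and Sufu hold for this length only.

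The genes whose pattern over the 4 libraries was most like that of Gli1, by Euclidean distance between centred log2 CPM values among 10707 genes of at least 5 CPM, were D930048N14Rik (0.091), Crym (0.098) and March9 (0.103). For Gli3, which had the smallest adjusted p among the genes with a positive fold change, they were Spire1 (0.035), Gpatch2l (0.042) and Zfp334 (0.051). With 4 libraries such distances describe the difference between the days and little else.

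The other genes of the pathway were described by role from lists of 84 genes, 73 of which were tested. Of these 73 genes, 16 (21.9%) were called higher at d4, 5 (6.85%) were called lower and 52 did not pass, beside 12.9 and 11.3% of all tested genes. Their median log2 fold change was 0.36, against -0.027 over all tested genes. Without d2 replicate 1, and without d2 replicate 2, edgeR called 0 of them in either direction, as it did of all genes, and DESeq2 called 8 and 9 higher and 4 and 4 lower.

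Genes for making and releasing ligand were called higher for 3 of 6 tested genes of 8 listed, and lower for 0, with a median log2 fold change of 1.55. Scube2 codes for a secreted protein that carries lipid-bound Hedgehog ligand away from the cell, and it had 56.3 and 54.3 CPM at d4 and 0.245 and 0.0759 CPM at d2. This was the largest rise of the list, with a log2 fold change of 8.37 (SE 0.40, edgeR adjusted p = 4.5e-05), and 3 and 1 counts at d2. Its relative Scube3 rose by 2.55 on the log2 scale, with 25.2 and 21.2 CPM at d4 and 4.25 and 3.64 CPM at d2, and Scube1, at a log2 fold change of 1.72, did not pass (edgeR adjusted p = 0.0164, with no filter 0.00195). Dhcr7, for the enzyme of the last step of cholesterol synthesis, the lipid joined to the ligand, rose by 1.39 (edgeR adjusted p = 0.00217). Disp1, for the membrane protein that releases ligand, had a log2 fold change of 0.73 (edgeR adjusted p = 0.0971), and passed with the replicate number as a block (0.00258). Hhat, for the enzyme that adds palmitate, had 0.66 (edgeR adjusted p = 0.375). Disp2, a relative of Disp1, had 2 and 1 counts at d4 and 11 and 2 counts at d2 and was not tested. The genes that rose thus belonged to release and sterol synthesis. Summed ligand RNA was 0.677 and 0.588 CPM at d4 and 0.164 and 0.38 CPM at d2. That was higher in both d4 libraries but under 1 CPM in each library.

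Of 7 listed genes for ligand receptors and co-receptors beside Ptch1, 6 were tested, 4 were called higher and 1 lower, with a median log2 fold change of 1.75. The co-receptors that present ligand to PTCH1 moved apart. Boc, for a cell-surface protein of the immunoglobulin family, rose by 2.42 on the log2 scale (12.8 and 11.0 CPM at d4, 2.45 and 1.97 CPM at d2), and Gas1, for a lipid-anchored co-receptor, rose by 1.56 (30.6 and 26.4 CPM at d4, 8.01 and 11.2 CPM at d2). Cdon, the relative of Boc, was at 24.0 and 25.4 CPM at d4 and 24.5 and 21.1 CPM at d2, a log2 fold change of 0.11 (edgeR adjusted p = 0.71). Lrp2, for the endocytic receptor megalin that takes up SHH in the mouse forebrain, fell by 4.05 (17.5 and 14.3 CPM at d4, 288 and 240 CPM at d2). Gpc3, for a glypican that competes with PTCH1 for ligand in the mouse, rose by 3.39 (627 and 539 CPM at d4, 54.8 and 56.6 CPM at d2), and Gpc6, another glypican, rose by 1.93 (edgeR adjusted p = 0.00373). In DESeq2 the Gas1 call ended without d4 replicate 1 (adjusted p = 0.0136) and the Gpc6 call without d4 replicate 2 (0.0453). Gpc5, a further glypican, had 1 and 2 counts at d4 and 6 and 8 counts at d2 and was not tested. Genes that present and genes that sequester ligand were both among those that rose.

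**Figure D3:**
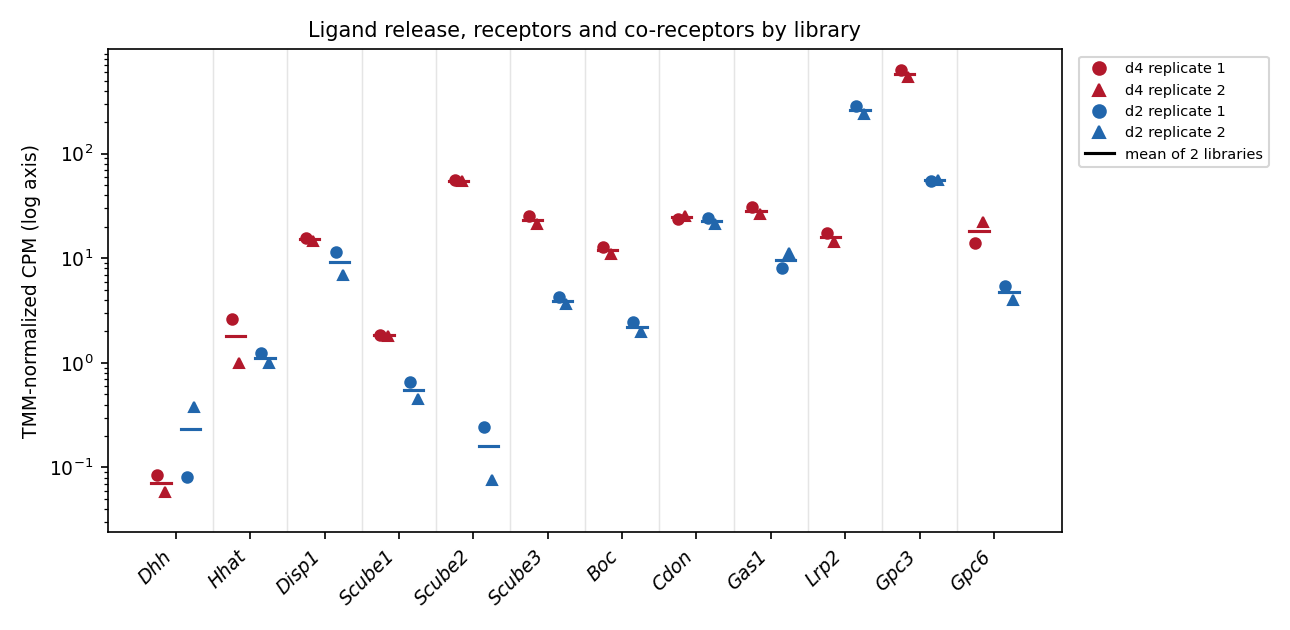
TMM-normalized CPM on a log axis of genes for ligand making and release (Dhh to Scube3) and of ligand receptors and co-receptors (Boc to Gpc6) in each library, red for d4 and blue for d2, circles for replicate 1, triangles for replicate 2 and a line at the mean of each day's 2 libraries. Lrp2 lies lower at d4, Scube2, Scube3, Boc, Gas1, Gpc3 and Gpc6 lie higher, and Cdon stays between 21.1 and 25.4 CPM in all 4 libraries.

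Among 21 regulators of SMO and GLI proteins, all of them tested, 1 was called higher and 0 lower, with a median log2 fold change of 0.15. The called gene was Stk36, for a kinase related to the fly protein Fused, at 1.25 (edgeR adjusted p = 0.00981). That call ended under DESeq2 size factors (adjusted p = 0.0108), filterByExpr (0.0103), limma voom (0.0112) and upper-quartile factors (0.0143), and without d4 replicate 1 (0.0207), and in DESeq2 without d4 replicate 1 (0.205) or 2 (0.135). Evc, for a ciliary partner of SMO, had a log2 fold change of -1.14 (edgeR adjusted p = 0.0112), Iqce, for a protein that anchors EVC, had 0.74 (0.0538), and Prkaca, for the catalytic subunit of protein kinase A, which marks GLI proteins for processing, had 0.69 (0.0611). The kinase gene Gsk3b, at 0.51 (edgeR adjusted p = 0.0699), and Pkia, for an inhibitor of protein kinase A, at -1.04 (0.0838), did not pass either. Evc passed under DESeq2 (adjusted p = 0.00315), upper-quartile factors (0.008), no filter (0.000788) and with the replicate number as a block (1.34e-05). Pkia passed with no filter (0.00724).

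The primary cilium list gave 2 higher, 1 lower and 19 not past of 22 tested genes, with a median of 0.17. Kif3a, for a motor subunit that builds cilia, rose by 1.30 (edgeR adjusted p = 0.00334) and Ift140, for a protein of retrograde transport in the cilium, by 1.02 (edgeR adjusted p = 0.00864). The Ift140 call ended under DESeq2 size factors (adjusted p = 0.0103) and upper-quartile factors (0.0141), and without d4 replicate 1 (0.0158). B9d1, for a protein of the zone at the base of the cilium, fell by 1.43 (edgeR adjusted p = 0.00432). Other settings added calls. Ift172, at 0.93 (edgeR adjusted p = 0.017), passed under DESeq2 (0.00782), no filter (0.00232) and with the replicate number as a block (4.01e-05). Dync2h1 passed under the block (-0.90, edgeR adjusted p = 0.000424). Replicates of some genes lay far apart, with Cep290 at 4.06 and 25.2 CPM at d4 and 4.74 and 23.5 CPM at d2. In DESeq2 without d4 replicate 2 the calls of B9d1 (adjusted p = 0.0129), Kif3a (0.0229) and Ift140 (0.0478) ended.

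Zinc finger factors related to GLI were called lower for 2 of 5 tested genes of 7 listed and higher for 0, with a median log2 fold change of -1.90. Both were ZIC genes, which code for factors of early neural and epiblast cells. Zic2 fell by 3.01 (18.8 and 16.5 CPM at d4, 135 and 150 CPM at d2) and Zic5 by 3.78 (5.67 and 8.06 CPM at d4, 89.3 and 100 CPM at d2) on the log2 scale. Of the GLI-similar genes, Glis1 had a log2 fold change of 1.38 (edgeR adjusted p = 0.0355), Glis2 of 0.33 (0.51) and Glis3 of -1.90 (0.0126), none past the test. Glis3 passed under upper-quartile factors (adjusted p = 0.00946), no filter (0.0018) and with the replicate number as a block (0.00271). Zic1 and Zic4 had at most 7 counts in any library.

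Of 19 listed genes beside the 9 that are known as GLI targets from other settings, 13 were tested, with 6 called higher and 1 lower. The one that fell was Sfrp1, for a secreted WNT inhibitor, at -2.25 (edgeR adjusted p = 0.00136). The 6 that rose were Foxf1, Foxf2, Foxc2, Ccnd2, Bmp4 and Igf2, genes of mesoderm and growth that other pathways also drive. Foxf1, for a transcription factor of lateral plate mesoderm, had 695 and 1122 counts at d4 and 2 and 0 counts at d2, a ratio of 801 with a counting interval of 221 to 6620. Foxf2 and Foxc2 had no counts at d2 and were at least 9.03-fold and at least 6.94-fold higher at d4, with the Foxc2 call (edgeR adjusted p = 0.00656) ending under DESeq2 size factors (0.0105). In DESeq2 without d4 replicate 1 the Foxc2 (adjusted p = 0.115) and Foxf2 (0.0227) calls ended. Ccnd2, for a cyclin, rose by 4.61 on the log2 scale, Bmp4 by 5.87 and Igf2, for a growth factor, by 8.36. The median log2 fold change of the list was 4.61 as fitted, or 2.79 with the 3 genes at 0 at d2 set to their lower bounds. Gli1 and Sfrp1 thus fell in the same libraries in which these 6 genes rose. The 6 tested genes that did not pass went both ways. Mycn (log2 fold change -0.77, edgeR adjusted p = 0.0161) and Ccnd1 (-0.47, 0.0893) had both d4 libraries below both d2 libraries. Bcl2 (1.10, 0.021) and Rab34 (0.21, 0.497) had positive values, and Foxc1, with no counts at d2, was at least 3.98-fold higher (0.0162). Bcl2 passed with no filter (edgeR adjusted p = 0.00504) and with the replicate number as a block (0.00067). Foxc1 passed under DESeq2 (adjusted p = 0.00757), limma voom (0.0035), no filter (7.74e-06) and the block (8.92e-05). Nkx6-1, a neural tube target, had 20 and 12 counts at d4 and 0 and 2 counts at d2, a log2 fold change of 3.73 that did not pass (edgeR adjusted p = 0.0223), and it passed with no filter (2.47e-05) and without d4 replicate 2 (2.58e-05). Nkx2-2 and Olig2, also of the neural tube, and Pax9, of sclerotome and pharynx, had at most 2 counts in any library.

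**Figure D4:**
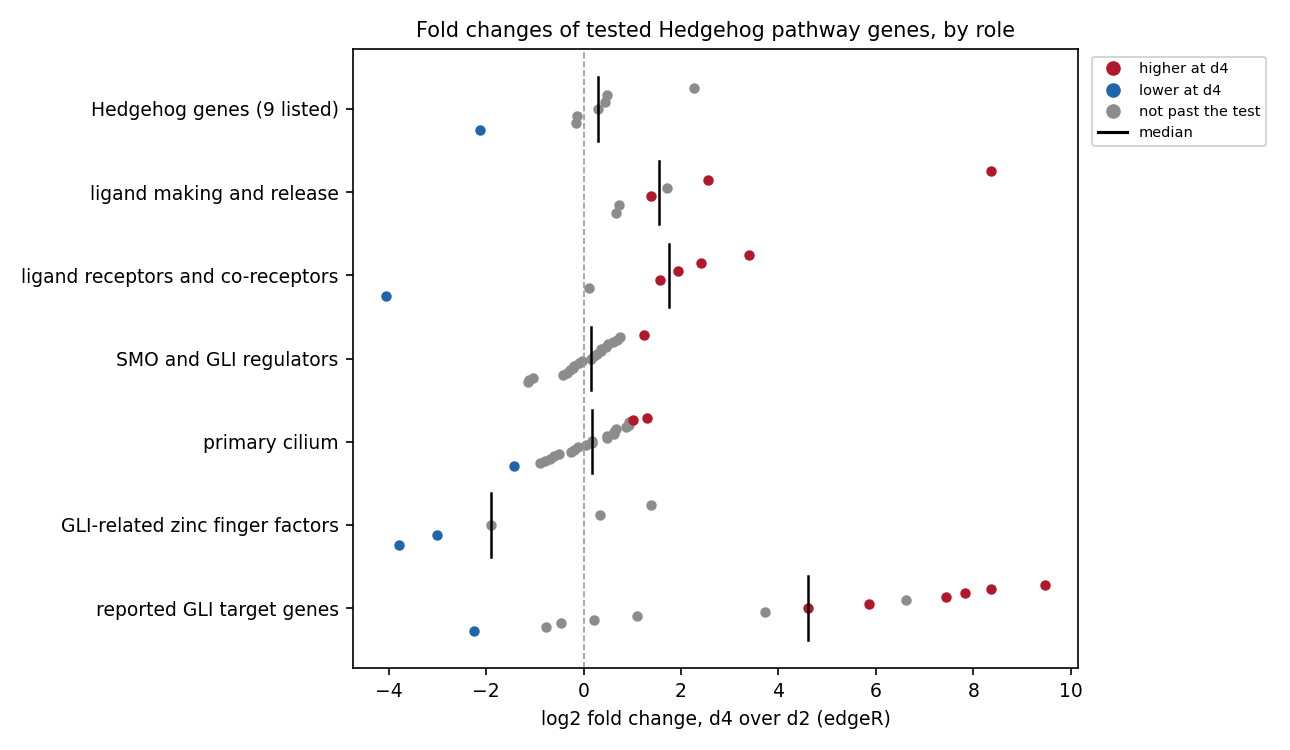
Log2 fold change, d4 over d2, of each tested gene of the pathway by role, red for called higher, blue for called lower and grey for not past the test, with a black line at the median. Gli1 is the one coloured point in the top row, and regulators and cilium genes gather around 0 with medians of 0.15 and 0.17. Target genes with no d2 counts are drawn at their fitted value, which is no bound.

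Markers of cell types moved between the same libraries. Epiblast and pluripotency markers summed to 269 and 242 CPM at d4 and to 5710 and 4760 CPM at d2, and lateral and extraembryonic mesoderm markers to 1530 and 1700 CPM at d4 and to 12.4 and 10.5 CPM at d2. Of 10 neural tube and floor plate markers, 4 were tested, 0 were called higher and 3 lower, at a summed 2.96 and 1.88 CPM at d4 and 11.7 and 10.9 CPM at d2. Whether these shifts in cell type carry the Gli1 difference was not tested, since bulk counts give 1 value per culture.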

How the data were processed

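RNA-seq of 2 libraries at d4 and 2 at d2 was taken from the deposited table, which holds the authors' raw counts for each gene. The authors trimmed paired-end reads of 75 bases with cutadapt, aligned them to mm10/GRCm38 with STAR and counted them by strand with featureCounts, without multi-mapping reads, and the deposited counts are unfiltered and not normalized. Their methods name the annotation both as GENCODE M10 and as Ensembl 102. Here 55227 of 55487 IDs took symbols, and exon lengths for RPKM, from GENCODE M21 on GRCm38.

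The filter summed the counts of each day, tested each gene's share one-sidedly against 0.5 CPM, and kept genes at a Benjamini-Hochberg adjusted p under 0.05 on either day. R 4.3.3 and edgeR 4.0.16 gave TMM factors (0.9396 to 1.038), and the quasi-likelihood fit and two-sided test (glmQLFit, glmQLFTest) had day as their sole term, with a threshold of 0.01 on the adjusted p. The procedure was tested on simulated counts for this comparison over 14932 genes, of which 200 were changed. It recovered 7.46, 74.6 and 98.5% of genes changed by 1, 2 and 3 on the log2 scale. In the data 24.3% of tested genes were called, which makes the cut-off on the unadjusted p less strict. The recovered shares therefore do not give the power of the real comparison. Alternatives used DESeq2 1.42.0, limma 3.58.1, other scaling factors and filters, a threshold of 0.05, a fit with the replicate number as a block, and fits without each library. DESeq2 with each library left out was added after seeing the data. Replicates came from independent differentiations. Exact permutation tests of 2 against 2 cannot go below 0.33.

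The members and gene lists were chosen with earlier results of these data known, and some pathway genes are not reported here. The named genes were the 9 members, all genes of pathway lists of at most 8 genes, and otherwise up to 6 tested genes with the smallest adjusted p, with up to 3 per marker list. Other genes named, among them Afp, Ttr, Nkx6-1, the other target genes that did not pass and those with few counts, were chosen after their values were seen.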

Additional observations from a re-analysis of the deposited data

How the results depend on the processing

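Gli1 was lower at d4 under every alternative run, from -2.39 to -1.87 in edgeR with 1 library left out, and lost its call without d2 replicate 1 or 2 as given in the report, and in DESeq2 without d4 replicate 2. Gli2 changed sign without d2 replicate 1 (0.14, DESeq2 0.13) and without d4 replicate 2 (0.07, DESeq2 0.06), as did Sufu (0.03 and DESeq2 0.02, then 0.05 and DESeq2 0.04). With 1 library left out, Gli2 ranged from -0.46 to 0.14 and Sufu from -0.37 to 0.05. Hhip passed with no filter (2.29, adjusted p = 0.00162), with the replicate block (2.16, adjusted p = 0.00715) and without d4 replicate 1 (3.00), so the members called higher numbered 2 with no filter, with Shh (5.64, adjusted p = 0.00638), and 1 under the block. Ihh, with no filter, had 1.24 (adjusted p = 0.676). With 1 library left out, members called lower ranged from 0 to 1 and members called higher from 0 to 1. Other pathway genes called higher numbered 29 under the block, and ranged from 0 to 19 with a library left out (DESeq2 without 1 d2 library, 8 and 9). Those called lower numbered 10 with no filter, 9 at a threshold of 0.05 and 13 under the block, and ranged from 0 to 11 with a library left out. The mean Gli1 share was 2.3% at d4 and 11.3% at d2 without division by length, and 19.3% at d2 with the longest transcript. Without one d2 library edgeR called 0 genes, the lowest adjusted p being 0.0189 and 0.018, so a lost call there is not particular to Gli1.

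Same-numbered libraries deviated together from their day means (correlation 0.627 over 10709 genes), but 2 pairs cannot show pairing and no source says which libraries share an experiment. The replicate block moved all calls to 3478 higher and 3496 lower. Shh and Ihh are limited by depth, with 0 to 8 counts in a library. Fold changes near 1 on the log2 scale may be limited by power. The simulation had far fewer changed genes than the data and does not measure that power.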
